A study of Drosophila melanogaster with 3 samples.

Results

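Hr3, Hr4, Hr39, Eip78C, ftz-f1, Hr38, Hr78 and Hr96 are 8 nuclear receptor genes of Drosophila melanogaster, among 13945 annotated protein-coding genes. They were chosen by name, and a peak was assigned to a gene when its summit lay inside the gene span or within 2 kb upstream of any of its transcription start sites (TSSs). By this rule 55 of the 9569 reproducible peaks belonged to them. The map is of CG3919, tagged with eGFP: animals of a stable transgenic line carry GFP at the C terminus of CG3919, and an anti-GFP antibody was used for chromatin immunoprecipitation and sequencing (ChIP-seq). Whole prepupae of unknown age, pooled male and female, gave 3 biological replicates. All were set against the same control file, and the replicates form 1 group, with no other genotype, stage or treatment analysed here. Peak lists carry no read totals, so depth is unknown. Regions were ranked inside each list by the peak signal that the authors deposited, rank 1 being the strongest. Each replicate list holds 30000 candidate regions, background included.

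Nuclear receptors are transcription factors with a zinc finger DNA-binding domain, and many are controlled by small lipophilic ligands. At the onset of metamorphosis a pulse of the steroid 20-hydroxyecdysone acts through the receptor EcR and its partner Usp to switch on early genes, whose products and the hormone together induce the early-late genes, among them Hr3, Hr4, Hr39 and Eip78C. Hr3 protein activates ftz-f1 in mid-prepupae, once the hormone titre has fallen, and the Ftz-F1 protein gives tissues the competence to answer the next pulse. Hr38, Hr78 and Hr96 are given apart here because they belong to neither class in that account.

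All 8 genes had a reproducible peak, where 33.2% of all protein-coding genes did. Long genes offer more sequence, and 67.8% of genes of 10 kb or more had a peak. Hr3, Hr4, Hr39, Eip78C, ftz-f1 and Hr38 are of that length, with spans of 22.4 to 66.0 kb. Hr78 and Hr96 span 3.48 and 4.12 kb, and 27.4% of genes under 10 kb had a peak. No peak was counted for more than 1 of the 8 genes. The 55 peaks merged into 48 separate regions, and the 9514 other peaks into 8927. Every one of the 55 overlapped a candidate in all 3 replicate lists, background included. This overlap was not counted over all peaks, so it has no background share beside it. Of the 55, 40 (72.7%) overlapped one of the strongest 9569 candidates of each replicate, close to the 72.8% of all other peaks.

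As a set these peaks ranked somewhat below the rest of the map. Their median rank was 5645, against 4779.5 for all other peaks, and 22 (40%) were among the strongest 4784 of the list. The strongest 1000 peaks held 6 of the 55 (10.9%), a share close to the 10.4% of all other peaks. Those 6 lay at Hr4, Eip78C and Hr96. A peak of that strength was found at 3 of the 8 genes, where 7.55% of all protein-coding genes and 20.4% of those of 10 kb or more had one.

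Most of the binding was intronic. Of the 55 summits, 45 (81.8%) were in an intron of the receptor gene, 7 were upstream of it, 3 were in an untranslated exon, and 0 were in coding sequence. Summits within 500 bp of a TSS of any gene made up 23.6% of the 55 and 35.6% of all other peaks. Those in an intron and farther from any TSS made up 70.9% and 42.6%. The 55 could lie only in a gene span or within 2 kb upstream of a TSS, and the other peaks were not restricted in this way. The 2 sets are therefore not alike in where their peaks could lie. These shares were not tested. The median span was 32240.5 bp for the 8 genes and 2166 bp for all protein-coding genes.

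**Figure D1:**
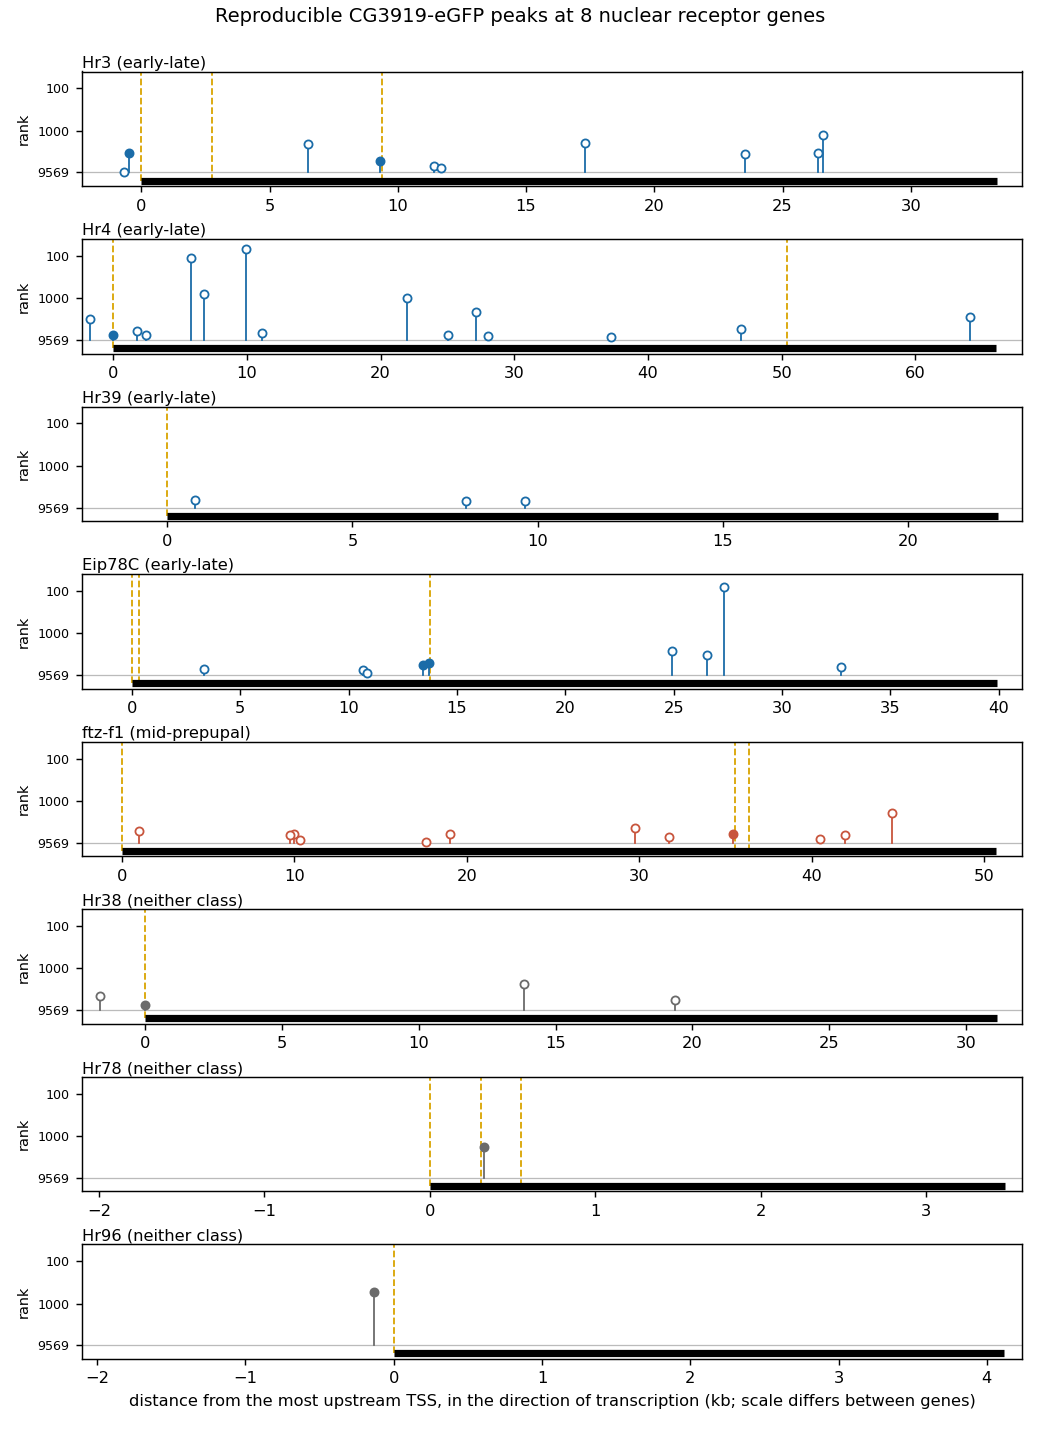
Reproducible peaks along the 8 genes, 1 panel a gene, with distance from the most upstream TSS in kb on the x axis and rank in the reproducible list on the y axis (log scale, strongest at the top). The black bar is the gene, dashed lines are TSSs, and filled circles are summits within 500 bp of a TSS of the gene; the tallest stems are intronic peaks of Hr4 (ranks 69 and 112) and Eip78C (rank 81).

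The number of peaks separated the genes beyond the spread of the replicates only in part. Counting the strongest 9569 candidates of each replicate, Hr4 had 16, 14 and 14 regions in replicates 1, 2 and 3, the highest count in all 3 lists. Eip78C had 10, 9 and 8, Hr3 had 8, 9 and 9, and ftz-f1 had 10, 7 and 12, and these 3 genes overlapped. Hr38 had 4 in every replicate, and Hr39 had 2, 4 and 3. Hr78 and Hr96 had 1 each in every replicate. In the reproducible list the counts were 15 for Hr4, 12 for ftz-f1, 10 for Hr3, 9 for Eip78C, 4 for Hr38, 3 for Hr39, and 1 each for Hr78 and Hr96.

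**Figure D2:**
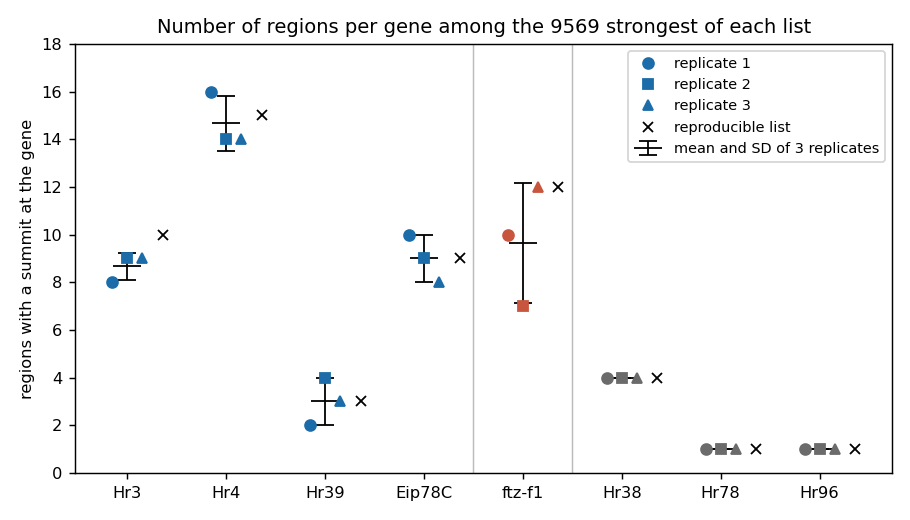
Number of regions at each gene (y axis) among the strongest 9569 of replicates 1, 2 and 3 (circle, square, triangle), with the mean and SD of the 3 replicates in black and the reproducible list as a cross. Hr4 is highest in each replicate (14 to 16), Eip78C, Hr3 and ftz-f1 overlap between 7 and 12, and the other 4 genes have 1 to 4.

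Set against other long genes, these counts were high at 4 of the genes. The median gene of 10 kb or more had 2 peaks. The 15 peaks of Hr4 were matched or passed by 2.23% of such genes, the 10 of Hr3 by 6.93%, the 9 of Eip78C by 8.35% and the 12 of ftz-f1 by 4.10%. Span differs among genes of 10 kb or more, so peaks were also expressed per 10 kb of gene and upstream sequence. The density was 2.83 for Hr3, 2.21 for Hr4, 2.15 for Eip78C and 2.28 for ftz-f1, against 1.23 for Hr39 and 1.21 for Hr38. The median over all genes of 10 kb or more was 0.659. Overlapping regions were counted apart in these densities. At Hr3 the regions of ranks 1280 and 3397, of 3325 and 9457, and of 6688 and 7543 overlap. Eip78C and ftz-f1 also have overlapping regions, so the order among these genes depends on how such regions are counted. With overlapping regions merged, the early-late genes together had 1.89 per 10 kb and ftz-f1 1.90.

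**Figure D3:**
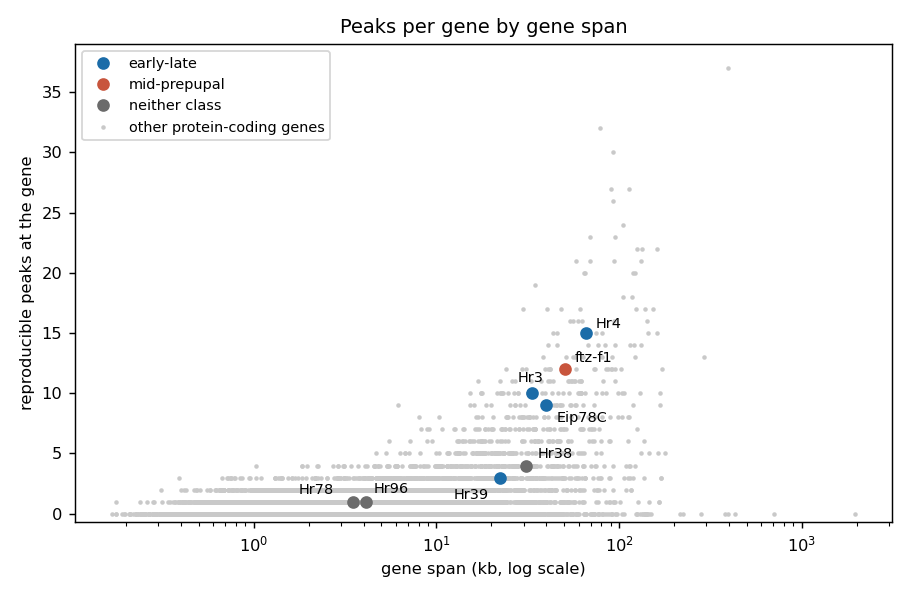
Reproducible peaks per gene (y axis) against gene span in kb (x axis, log scale) for the 8 receptor genes, coloured by class, and for all other protein-coding genes in grey. Hr4, ftz-f1, Hr3 and Eip78C have 9 to 15 peaks, where the median gene of 10 kb or more has 2, and Hr39 and Hr38 have 3 and 4.

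Early-late genes and ftz-f1 did not differ in peak density beyond the spread of the replicates. The 4 early-late genes together held 37 peaks, 2.18 per 10 kb, and ftz-f1 held 12, 2.28 per 10 kb. In replicates 1, 2 and 3 the density was 2.12, 2.12 and 2.00 at the early-late genes and 1.90, 1.33 and 2.28 at ftz-f1, so ftz-f1 was lower in replicates 1 and 2 and higher in replicate 3 and in the reproducible list. Among the strongest 1000 peaks were 5 of the 37 early-late peaks (13.5%) and 0 of the 12 at ftz-f1, where 10.5% of all reproducible peaks were. With so few peaks both counts are near that share, and they were not tested. The counts depended on how a peak was called: among the strongest 4784 peaks there were 16 at the early-late genes and 2 at ftz-f1, and with peaks counted only for the gene of the nearest TSS, 16 and 10. Without replicate 1, 31 early-late peaks and 7 of ftz-f1 were matched among the strongest 9569 candidates of both other replicates.

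The strongest early-late peak outranked the strongest ftz-f1 peak in all 3 replicates. For each replicate the best rank at any of the 4 early-late genes minus the best rank at ftz-f1 was -1652, -2247 and -1844. The mean difference was -1914 ± 304 ranks (SD, n = 3), with p = 0.25 in a two-sided exact paired permutation test, the smallest p that 3 replicates allow. With overlap of 50% of both regions' lengths required to match a peak, it was -4142 ± 445 ranks (SD, n = 3). This value does not rest on the same ftz-f1 peak, because rank 1913, only 119 bp wide, lost its match. Weaker ftz-f1 peaks then gave the best ranks there, 4607, 3724 and 4297 in replicates 1, 2 and 3. The larger value is therefore not a larger difference for the same peaks. The early-late side is the best of 4 genes and ftz-f1 is 1 gene, and the 4 differed among themselves. Hr4 (-1911 ± 305), Eip78C (-1902 ± 303) and Hr3 (-677 ± 481) outranked ftz-f1 in every replicate, and Hr39 ranked below it in every replicate, by 4052 ± 724 ranks (SD, n = 3 each). Each of these 4 differences also had an exact permutation p = 0.25.

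**Figure D4:**
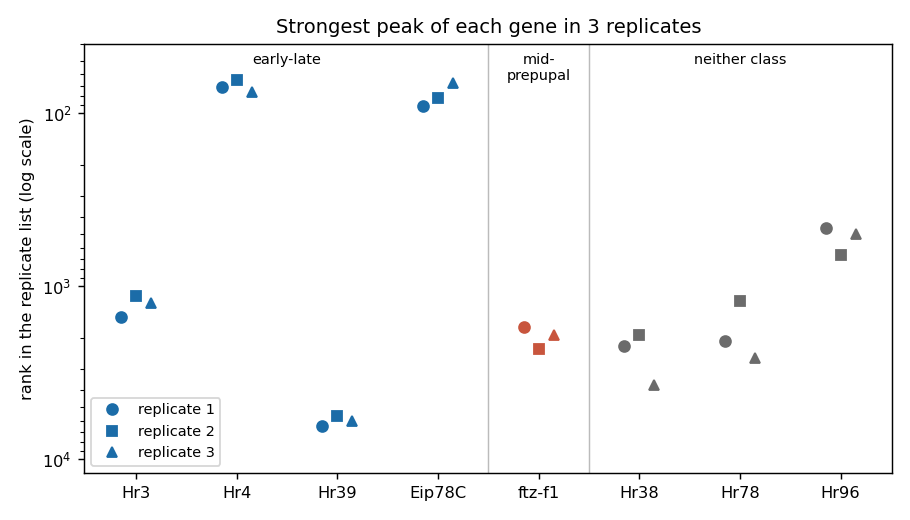
Rank of the strongest peak of each gene in replicates 1, 2 and 3 (y axis, log scale, strongest at the top), with the early-late genes in blue, ftz-f1 in red and the other 3 genes in grey. Hr4 (65 to 76) and Eip78C (67 to 91) overlap and stand above all others, and Hr39 (5610 to 6464) stands below all others.

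The order of the strongest peaks over all 8 genes ran Hr4, Eip78C, Hr96, Hr3, Hr78, ftz-f1, Hr38 and Hr39 by list rank. Hr4 and Eip78C overlapped in their replicate ranks. Hr96, at 464, 660 and 503, overlapped neither neighbour. Hr3 and Hr78 overlapped, as did Hr78 with ftz-f1 and ftz-f1 with Hr38. Hr39 stood apart at the weak end.

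Hr4 (FBgn0264562, chrX:1941940-2007956, dm6, plus strand) encodes a receptor that represses early genes and helps to induce ftz-f1. Its strongest peak ranked 71, 65 and 76 in replicates 1, 2 and 3 (70.7 ± 5.51, SD, n = 3) and 69 in the reproducible list. The summit lies in an intron, 9970 bp downstream of the upstream TSS, from which transcripts RC, RD, RG, RH, RI, RJ and RK start. A further intronic summit at 5816 bp had rank 112 (123, 125 and 105 in the replicates). Summits at 6770 bp and 22007 bp had ranks 798 and 971, so the 4 strongest peaks of the gene were intronic and downstream of that TSS. The fifth, rank 2065, was intronic too, and rank 2808 was in an untranslated exon near the 3' end of the gene. Rank 3105 lay 1755 bp upstream of Hr4 and at -145 bp from a TSS of its neighbour CG3857. Another neighbour, CG3587, also has a TSS within 500 bp of it. The promoter of RC to RK itself had a weak peak, with its summit 5 bp upstream of the TSS and rank 7153. The other promoter, of RE and RF, had no reproducible peak, and its closest pooled candidate ranked 13157. The sequences of the strongest intronic summit and of the weak promoter summit are shown to set them side by side, on the plus strand, at chrX:1951850-1951970 and chrX:1941875-1941939. The summit is base 61 in each, the promoter window ends at the base before the TSS, and neither window holds a motif of those searched.
Hr4 rank 69: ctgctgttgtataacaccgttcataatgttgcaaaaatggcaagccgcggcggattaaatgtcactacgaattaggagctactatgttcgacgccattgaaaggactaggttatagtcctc
Hr4 rank 7153: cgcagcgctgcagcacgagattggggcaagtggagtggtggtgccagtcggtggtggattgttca

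Eip78C (FBgn0004865, chr3L:21226609-21266503, dm6, plus strand) encodes a receptor related to vertebrate Rev-erb and is induced by ecdysone. A single peak stood far above its others. The intronic summit 13566 bp downstream of the RB TSS ranked 91, 82 and 67 in replicates 1, 2 and 3 (80 ± 12.1, SD, n = 3) and 81 in the list. The next peaks of the gene ranked 2651 and 3217 and lay in the same stretch, at 11182 and 12808 bp from that TSS. The gene has 3 promoters. RB, whose annotated protein has 392 amino acids, had a pair of promoter peaks of ranks 5036 and 5645, with summits 31 and 296 bp upstream of its TSS. The sixth-strongest peak, rank 6246, was intronic. The promoters of RD and RE, and of RA, whose proteins have 862 amino acids, had no reproducible peak, and their best pooled candidates ranked 12531 and 13874. Within the reproducible list, the only Eip78C start site with a peak was that of the short protein. The intronic summit and the promoter summit with rank 5645 are shown for their unlike base composition, on the plus strand, at chr3L:21253853-21253973 and chr3L:21239991-21240111, with the summit at base 61. Capitals mark GAGAG or its reverse complement CTCTC.
Eip78C rank 81: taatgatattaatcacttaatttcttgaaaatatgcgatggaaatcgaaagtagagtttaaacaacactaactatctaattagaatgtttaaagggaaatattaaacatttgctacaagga
Eip78C rank 5645: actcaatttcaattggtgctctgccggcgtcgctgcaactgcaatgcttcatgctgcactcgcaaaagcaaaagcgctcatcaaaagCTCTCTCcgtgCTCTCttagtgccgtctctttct

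Hr3 (FBgn0000448, 2R:10203995-10237348, dm6, minus strand) encodes the fly counterpart of the vertebrate ROR receptors, which induces ftz-f1 and represses early genes. Its strongest peak ranked 1518, 1145 and 1251 in replicates 1, 2 and 3 (1305 ± 192, SD, n = 3) and 1280 in the list. That summit is intronic, 17177 bp downstream of the TSS of RA, RF and RH. The next were intronic as well, with rank 1983 at 7917 bp downstream of the same TSS and rank 2018 at 2886 bp upstream of it. Rank 3397 lies 16977 bp downstream, and its region overlaps that of the strongest peak. Measured by the nearest summit, it ranked 26394, 6375 and 5004 in the replicates, and so it had no strong summit of its own in replicate 1. Rank 3473 was intronic too. At the promoters, RD had a peak of rank 3325 with its summit 467 bp upstream, which also lies at -173 bp from a TSS of Hdc, the histidine decarboxylase gene, and near lncRNA:CR45265. This summit is close to the edge of the 500 bp window, and of the replicates only replicate 1 had a candidate summit within it. RA, RF and RH had a peak of rank 5192 with its summit 82 bp upstream, at a TSS shared with CG46321. RC and RI, at a TSS shared with CG12912, had neither a peak nor a pooled candidate. CG12912 and CG46321 overlap Hr3. All 8 intronic peaks of Hr3 also lie inside CG12912, and all of these but ranks 2018 and 5192 inside CG46321. Ranks 1280 and 3397 lie inside lncRNA:CR46322 too, and rank 3397 is 367 bp downstream of a TSS of that gene. The intronic peaks therefore cannot be assigned to Hr3 alone. Neither can rank 9457, 672 bp upstream of Hr3, which lies inside Hdc and 32 bp downstream of a TSS of that gene.

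Hr39 (FBgn0261239, chr2L:21237250-21259675, dm6, plus strand) is the closest relative of ftz-f1 in the fly genome, and the proteins can bind the same sites. It was the weakest of the 8 genes. Its peaks ranked 6224, 6638 and 6870, all intronic, at 733, 8076 and 9649 bp downstream of the only promoter. The best replicate ranks at the gene were 6464, 5610 and 6029 (6034 ± 427, SD, n = 3). None of the 3 was among the strongest 4784 peaks of the list, and the promoter had no peak or pooled candidate. The peak of rank 6224 also lay at -318 bp from the annotated start of mir-9374, a microRNA gene within Hr39. Of the other nuclear receptor genes, those closest to Hr39 in number of peaks were Hnf4, usp and svp, with 3 each, by a count of peaks alone.

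The mid-prepupal gene ftz-f1 (FBgn0001078, chr3L:18750607-18801309, dm6, minus strand) had many peaks, and all but 2 were outside the strongest 4784. The strongest ranked 1723, 2312 and 1911 in replicates 1, 2 and 3 (1982 ± 301, SD, n = 3) and 1913 in the list. It is intronic, 8313 bp downstream of the TSS of RA. The next was rank 4394, also intronic, 5831 bp upstream of the TSS of RC and RD. Rank 5083 lay in an untranslated exon, 988 bp downstream of the TSS of RB, the transcript of the longest protein (1027 amino acids). That peak and those of ranks 5907, 6110, 6290, 8324 and 9180 also lie inside lncRNA:CR45939, which has a TSS within 100 bp of that of RB. These peaks therefore cannot be assigned to ftz-f1 alone. Rank 5907 was intronic. Rank 5992 was the only promoter peak, with its summit 99 bp upstream of the TSS of RC and RD, whose proteins have 803 and 853 amino acids, and it ranked 8425, 5483 and 5082 in the replicates. Rank 6110 was intronic and uneven, at 5447, 14541 and 4297. The promoters of RB and of RA had neither a peak nor a pooled candidate within 500 bp. The gene closest to ftz-f1 in number of peaks among the other nuclear receptors was EcR with 11, followed at a distance by knrl with 4 and Hnf4 with 3. Shown are the strongest summit and the promoter summit, on the minus strand, at chr3L:18756583-18756703 and chr3L:18765783-18765903, with the summit at base 61 and GAGAG in capitals.
ftz-f1 rank 1913: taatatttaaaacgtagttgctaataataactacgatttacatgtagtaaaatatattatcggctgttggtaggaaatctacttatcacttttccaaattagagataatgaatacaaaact
ftz-f1 rank 5992: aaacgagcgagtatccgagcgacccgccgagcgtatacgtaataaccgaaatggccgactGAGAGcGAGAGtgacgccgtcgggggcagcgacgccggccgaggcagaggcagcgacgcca

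Hr38 (FBgn0014859, chr2L:20683462-20714588, dm6, minus strand) encodes the only fly member of the NR4A family and can pair with Usp. Its strongest peak, in an intron 13840 bp downstream of the TSS, ranked 2232, 1922 and 3713 in replicates 1, 2 and 3 (2622 ± 957, SD, n = 3) and 2354 in the list. The others ranked 4489 (1637 bp upstream), 5644 (intronic, 19358 bp downstream) and 7120. The last was the promoter peak, 22 bp upstream of the TSS of RB and RD. Its sequence, chr2L:20714589-20714670 on the minus strand with the summit at base 61, ends at the base before the TSS and is shown beside the promoters of Hr4 and ftz-f1.
Hr38 rank 7120: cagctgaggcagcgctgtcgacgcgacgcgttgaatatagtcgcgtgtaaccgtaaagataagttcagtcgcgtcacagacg

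Hr78 and Hr96 were the 2 genes whose strongest peak lay within 500 bp of a TSS of their own, and in each it was the only peak. The strongest peak was so placed in 60.9% of the shorter genes with a peak and in 30.0% of those of 10 kb or more. Hr78 (FBgn0015239, chr3L:21494019-21497494, dm6, minus strand), a relative of the vertebrate TR2 and TR4 receptors, is needed for the response to ecdysone at the onset of metamorphosis. Its peak ranked 2066, 1218 and 2602 in replicates 1, 2 and 3 (1962 ± 698, SD, n = 3) and 1812 in the list. The summit lay 16 bp downstream of the RE TSS and counted for both promoters of the gene. It was also inside asRNA:CR43933, at -370 bp from a TSS of that gene. Hr96 (FBgn0015240, chr3R:25025235-25029351, dm6, plus strand) encodes a receptor of xenobiotic and lipid metabolism. Its peak ranked 464, 660 and 503 (542 ± 104, SD, n = 3) and 524 in the list, the strongest promoter peak of the 8 genes. The summit was 130 bp upstream of Hr96 and at -88 bp from the TSS of the divergent gene EMC6, so that it cannot be assigned to 1 of the pair. The sequence is given on the plus strand, chr3R:25025045-25025165, with the summit at base 61.
Hr96 rank 524: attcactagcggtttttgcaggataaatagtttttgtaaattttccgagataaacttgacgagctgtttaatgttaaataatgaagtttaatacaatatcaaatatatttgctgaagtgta

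Annotated start sites were grouped into promoters when each lay within 300 bp of the next, and a promoter had a peak when a summit was within 500 bp. By this rule 9 of the 16 promoters had a peak, where 21.3% of the promoters of all protein-coding genes did and 29.5% of those of genes of 10 kb or more. The early-late genes had a peak at 4 of 9 promoters, ftz-f1 at 1 of 3, and Hr38, Hr78 and Hr96 at 4 of 4. Both promoters of Hr78 were counted through the same peak, and the Eip78C promoter through a pair. Of the 7 promoters without a peak, 3 had a pooled candidate below the list and 4 had none. In the long genes the promoter peaks were weak: at Hr4, Eip78C, ftz-f1 and Hr38, and at RA, RF and RH of Hr3, they ranked between 5036 and 7153. Counting only the strongest 4784 peaks of the list left 4 promoters with a peak, those of Hr78, Hr96 and RD of Hr3, the last resting on a summit that only replicate 1 placed within 500 bp.

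Weaker peaks of these genes had more G and C. In the 200 bp around the summit, G+C had a median of 43% at the 55 peaks and 36% at all other peaks. Among the 33 weaker peaks of the 8 genes it was 46.5%, against 37.5% over the weaker part of the whole list, and among the 22 within the strongest 4784 it was 37%, against 35%. The early-late peaks had a median of 39.5% and those of ftz-f1 46.8%. The 9 peaks at a promoter of their own gene had 53%, against 39% for all peaks within 500 bp of a TSS. The 6 promoter peaks ranked 5036 to 7153 had 46.5 to 60.5% G+C, and those of Hr3 at rank 3325, Hr78 and Hr96 had 25.5, 31.5 and 32.5%. The part of base composition in the weaker calls was not tested.

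**Figure D5:**
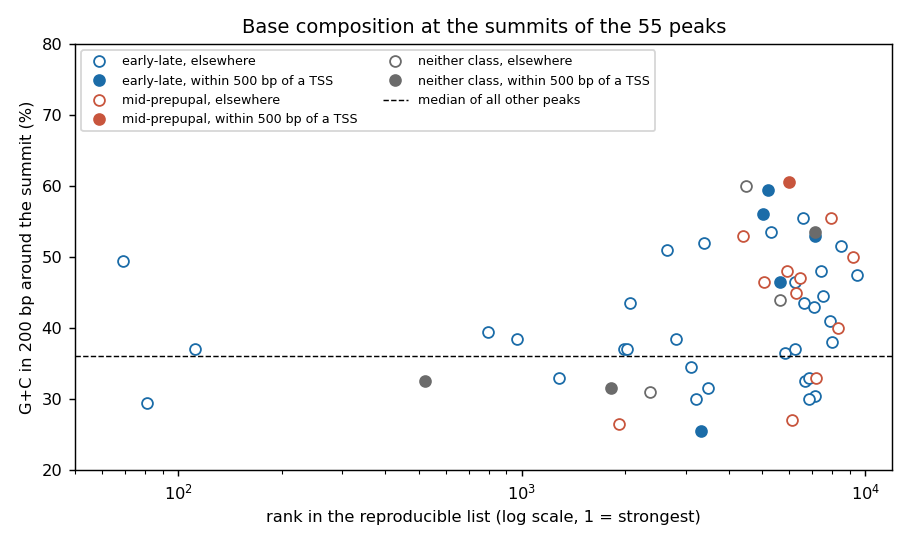
G+C in the 200 bp around each of the 55 summits (y axis, %) against rank in the reproducible list (x axis, log scale), coloured by class and filled where the summit is within 500 bp of a TSS of the gene; the dashed line is the median of all other peaks (36%). The filled points from rank 5036 on lie at 46.5 to 60.5%, and those of Hr3, Hr78 and Hr96 at stronger ranks at 25.5 to 32.5%.

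The core sequence that nuclear receptors bind was about as frequent at these summits as over the whole map. In 200 bp windows and on both strands, the receptor core AGGTCA was found at 2 of 55 summits (3.64%), at Hr4 rank 7433 and ftz-f1 rank 6476, and at 3.71% of all reproducible peaks. The longer TCAAGGTCA, bound by Ftz-F1 and Hr39 as monomers, was at 0 of 55 and 0.0627% of all. It contains AGGTCA. The palindromic ecdysone response element, searched by fixed letters, was at 0 of 55 and 0 of 9569. Because that search matched nowhere in the map, its 0 of 55 cannot tell whether such elements are rare at these genes. The longer monomer site was at only 6 of 9569 peaks, too few for its 0 of 55 to separate these genes from the map. The DRE, TATCGATA, was at 0 of 55 and 1.83% of all, motif 1, GGTCACACT, at 0 and 1.10%, and the E-box CACGTG at 1 (ftz-f1 rank 6476), 1.82%, and 1.87% of all. GAGAG, the core that GAGA factor binds, was at 20 of 55 (36.4%) and 26.3% of all. By class it was at 11 of 37 early-late summits, 7 of 12 of ftz-f1 and 2 of 6 of the other genes, and at 6 of the 9 promoter peaks, against 31.9% of all peaks within 500 bp of a TSS. A match describes the letters only, and the shares were not tested.

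Of the 13 other nuclear receptor genes, 8 (61.5%) had a peak, 55 peaks in all, at 16 of 30 promoters. The strongest were at Eip75B (27 peaks, best rank 194), the early gene of the E75 receptors, and at Hnf4 (734), knrl (857) and EcR (1155), and 3 of the 13 genes had a peak in the strongest 1000. Of 25 other genes of the ecdysone hierarchy, 14 (56%) had a peak, 75 in all, at 14 of 50 promoters (28%). The strongest among these were at ImpL2 (rank 91), E23 (154), Ldh (451) and Eip74EF (744). None of these counts compares a condition with another: all come from 1 map of whole animals, in which weak binding in many cells and strong binding in few cannot be told apart.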

How the data were processed

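CG3919-eGFP ChIP-seq was deposited as peak lists on dm6 and dm3, and the dm3 lists were not used here. Per the deposited provenance texts, the authors made a candidate list for each of 3 replicates and for the pool, each with 1 control file, and thresholded the pool on the irreproducible discovery rate. The aligner, the peak caller and the threshold on this rate are not stated in the labels or lists. The signal of each region is the authors' deposited value, on an unstated scale, and served for ranking alone. The top 9569 of the 30000 pooled candidates and the 9569 reproducible peaks are identical sets. Depth is unknown.

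Genes and transcripts came from Ensembl release 115 (BDGP6.54), which has dm6 coordinates. Printed sequence is RefSeq's of that assembly, without bases of annotated exons. No listed region ended beyond its arm. A peak's replicate rank is that of the strongest overlapping candidate (1 bp or more), so neighbouring peaks can share a candidate. Background shares were computed over all protein-coding genes, their promoters, or all peaks. Exact paired permutation tests over replicates were two-sided. With 3 replicates no outlier test was made. Alternatives covered the upstream distance, TSS window, summit or midpoint, overlap, strongest 4784 peaks, nearest TSS, motif window and each replicate left out. Named were all 8 genes with up to 6 peaks each, peaks at promoters or with motifs, pooled candidates at promoters without a peak, neighbours with a TSS within 500 bp, and of the other lists the genes with the 4 strongest peaks and the 3 nearest in count to Hr39 and ftz-f1. The genes, lists and tests were chosen with earlier results of these data known. Scripts were tested on simulated data. Python 3.11.15, numpy 2.4.6, pandas 2.3.3, scipy 1.17.1 and matplotlib 3.10.9 were used.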

Additional observations from a re-analysis of the deposited data

How the results depend on the processing

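Of the 8 genes, 7 had a peak among the strongest 4784 of the list and 6 when a peak counted only for the gene of the nearest TSS. The share of all protein-coding genes was taken under the main rule only (33.2%, and 67.8% of those of 10 kb or more). These 2 counts therefore have no background share beside them and show only how the count moved. Those settings gave 22 and 29 peaks at the 8 genes instead of 55, and 16 and 16 at the early-late genes instead of 37. The strongest 4784 held 2 peaks of ftz-f1 instead of 12 and 4 promoters with a peak instead of 9. By construction the stricter list holds fewer peaks, and the nearest TSS is often that of another gene inside or beside a long one. With each replicate left out in turn, list peaks matched among the strongest 9569 candidates of both others numbered 44 to 46 peaks at the 8 genes, 31 each time at the early-late genes, 7 (without replicate 1) to 10 at ftz-f1, with 7 to 8 promoters. The promoter count also moved with the TSS window: 7 of 16 promoters had a peak within 250 bp and 12 of 16 within 1000 bp. In 100 bp windows AGGTCA was at 1 summit instead of 2 and GAGAG at 13 instead of 20. The difference in strongest rank between early-late genes and ftz-f1 ranged from -2046 to -1748 with a replicate left out, where the smallest exact p is 0.5. Merging overlapping regions, an alternative added after seeing the data, left 48 peaks. That difference stayed negative under all its alternatives. The order of peak density did not hold: ftz-f1 was the higher in the full list, and the early-late genes were the higher among the strongest 4784 peaks (0.943 against 0.379 per 10 kb), without replicate 1 (1.83 against 1.33) and without replicate 3 (1.83 against 1.52). By contrast, ftz-f1 was the higher by nearest TSS only (1.90 against 0.943 at the early-late genes) and without replicate 2 (1.90 against 1.83). It was also the higher, by small margins, by region midpoint, by any overlap and with overlapping regions merged. With 1 group of samples, pairing by replicate number served only to compare genes within a replicate.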
